A study of Mus musculus with 24 samples.

Results

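Immediate early genes other than the Nr4a family were followed in 6 organs of mice that lack Nur77, the nuclear receptor encoded by Nr4a1. The genes were taken from a list of 10 by their symbol in the platform annotation, whatever their values. Of the 10, 7 had a probe with that symbol and gave 8 probes: Fosb, Jun (2 probes), Junb, Atf3, Ier2, Dusp1 and Zfp36. They are 7 of the 9834 genes with a symbol of their own on the array. Fos, Egr1 and Jund were not analysed here, because no probe carried their symbol.

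The organs were brown adipose tissue, skeletal muscle, spleen, lung, testis and heart, each compared as RNA pooled from Nur77-/- mice against RNA pooled from Nur77+/+ mice on the same two-colour array. The design text speaks of 7 mice in either pool, while the labelling protocol speaks of 6 control animals. No label states age, sex or strain, describes the allele beyond Nur77-/-, or names a treatment for either genotype. Each organ had 4 arrays, 2 with the mutant pool in Cy5 (replicates 1 and 2) and 2 with it in Cy3 (replicates 3 and 4). All values are log2 ratios, read as mutant over wild type, so that -1 means a level 2-fold lower in the mutant pool. This direction is likely but is not stated with the values. A ratio carries no level, so a tissue that both channels share could not be checked by its markers. Fewer cells of a type cannot be told apart from less RNA per cell.

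Immediate early genes are transcribed within minutes of a stimulus from factors already present in the cell, without new protein synthesis, and their transcripts decay fast. Growth factors, stress and membrane depolarisation reach them through mitogen-activated protein kinases and serum response factor or CREB. Fosb and Jun proteins pair into the AP-1 transcription factor, Junb is a related Jun protein, and Atf3 is a stress-induced factor that pairs with them. Dusp1 is a phosphatase that shuts off mitogen-activated protein kinases, and Zfp36 (tristetraprolin) binds AU-rich elements and hastens the decay of cytokine and early gene transcripts. Nr4a1 is itself induced in this way, and as a receptor it binds the NBRE, a short DNA element. It served as the check of the labels here: its ratio was below 0 on 21 of the 22 arrays with a value. Whether that probe lies inside the deleted sequence is not stated, so a remaining transcript could still be read by it.

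The upstream sequences of Zfp36, Atf3 and Jun are shown, since the results below turn mainly on these members. They are the 150 bases before the transcript start, from RefSeq (GRCm38.p6), written 5′ to 3′ on the gene's strand. Capitals mark matches to the motifs searched on both strands.
Zfp36, chr7:28379229-28379378, minus strand: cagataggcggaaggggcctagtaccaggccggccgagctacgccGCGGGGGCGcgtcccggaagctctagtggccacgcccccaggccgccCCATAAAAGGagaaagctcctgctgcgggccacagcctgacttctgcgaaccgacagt
Atf3, chr1:191183334-191183483, minus strand: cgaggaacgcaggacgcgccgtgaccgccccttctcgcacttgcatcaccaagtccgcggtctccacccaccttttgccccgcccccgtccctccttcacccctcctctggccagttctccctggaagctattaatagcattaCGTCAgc
Jun, chr4:95052223-95052372, minus strand: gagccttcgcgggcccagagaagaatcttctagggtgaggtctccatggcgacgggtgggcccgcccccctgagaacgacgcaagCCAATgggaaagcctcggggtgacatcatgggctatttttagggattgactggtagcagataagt

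The 250 bases upstream were searched in the 6 members with an entry in the promoter table, and Ier2 had none. The NBRE (AAAGGTCA) occurred in 0 of the 6 and in 1.34% of all 32851 windows of that length. The CArG box, bound by serum response factor, was matched in Zfp36 alone among the 6, 58 to 49 bases before the start, and in 1.47% of all windows. An EGR site (GCGGGGGCG) was matched in Zfp36 and Fosb, against 2.57% of all windows. The full CRE (TGACGTCA), the site of CREB, was matched in Dusp1 alone, against 1.55%. Its core (TGACG), which the full site contains, was matched in Atf3, Dusp1, Fosb and Junb, against 17.8%. The Fosb window held 73 bases inside the annotated span of the gene, and both Fosb matches lay among them. The AP-1 site (TGAGTCA) occurred in 0 of the 6, against 4.46%. The CCAAT box (CCAAT) was matched in Jun and Junb, against 33.8% of all windows. These are matches of letters in a window and say nothing of binding.

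The measurements differed in quality between organs. Arrays held 13396 to 19455 values for 20205 probes, fewest in spleen and most in brown adipose tissue. The median of all rows lay between -0.81 and 0.69, both on skeletal muscle arrays (replicates 2 and 4). Across rows, pairs of arrays from 1 organ had a median Spearman rho of 0.10 when their dye orientation matched and of -0.04 when it was opposite. On heart replicate 2 the label of the wild-type channel reads skeletal muscle. Over the heart arrays, markers of fast skeletal muscle had estimates from -0.30 to 0.57 (median -0.03), and the label was not tested. Without that array every member of heart still missed the threshold, with Junb at -0.35 in place of 0.13 and no other sign turned. The members lacked 16 of their 192 possible probe values, and none of their values lay in the separate mode above 12 in size that was treated as missing. Jun, Atf3 and Zfp36 had all 24 values, Fosb 23, Ier2 20, Junb 19 and Dusp1 18.

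In each organ the ratio was tested against 0 with limma, and p-values were adjusted over all rows of the organ. The fit was 1 model over the 24 arrays with a term for the dye. The spread of a gene was pooled over all organs, so a ± SE is not the error of its organ alone. The median absolute deviation of an array ran from 0.35 (brown adipose tissue replicate 2) to 1.75 (skeletal muscle replicate 4). The 4 arrays of an organ repeat 1 comparison of 2 pools, so the p-values measure error between hybridisations and not the spread between animals. Of 42 pairs of a member and an organ, 39 could be tested. One pair passed the threshold of 0.05: Zfp36 was lower in skeletal muscle of the mutant pool. In that organ 5.59% of all rows passed, 2.23% lower and 3.36% higher, so 1 of 6 tested members is not set apart from the background by its count. The split of 267 lower and 402 higher rows became 847 and 56 with the Cy3 arrays turned in sign, 105 and 447 with arrays centred, and 2 and 58 with arrays centred and scaled. In lung 0 of 7 members passed (0.0809% of all rows, 0.0728% lower and 0.00809% higher) and in spleen 0 of 5 (1.53%, 0.936% lower and 0.597% higher), all by limma. In testis, heart and brown adipose tissue 0 of 7 passed, as did 0% of all rows by limma.

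**Figure D1:**
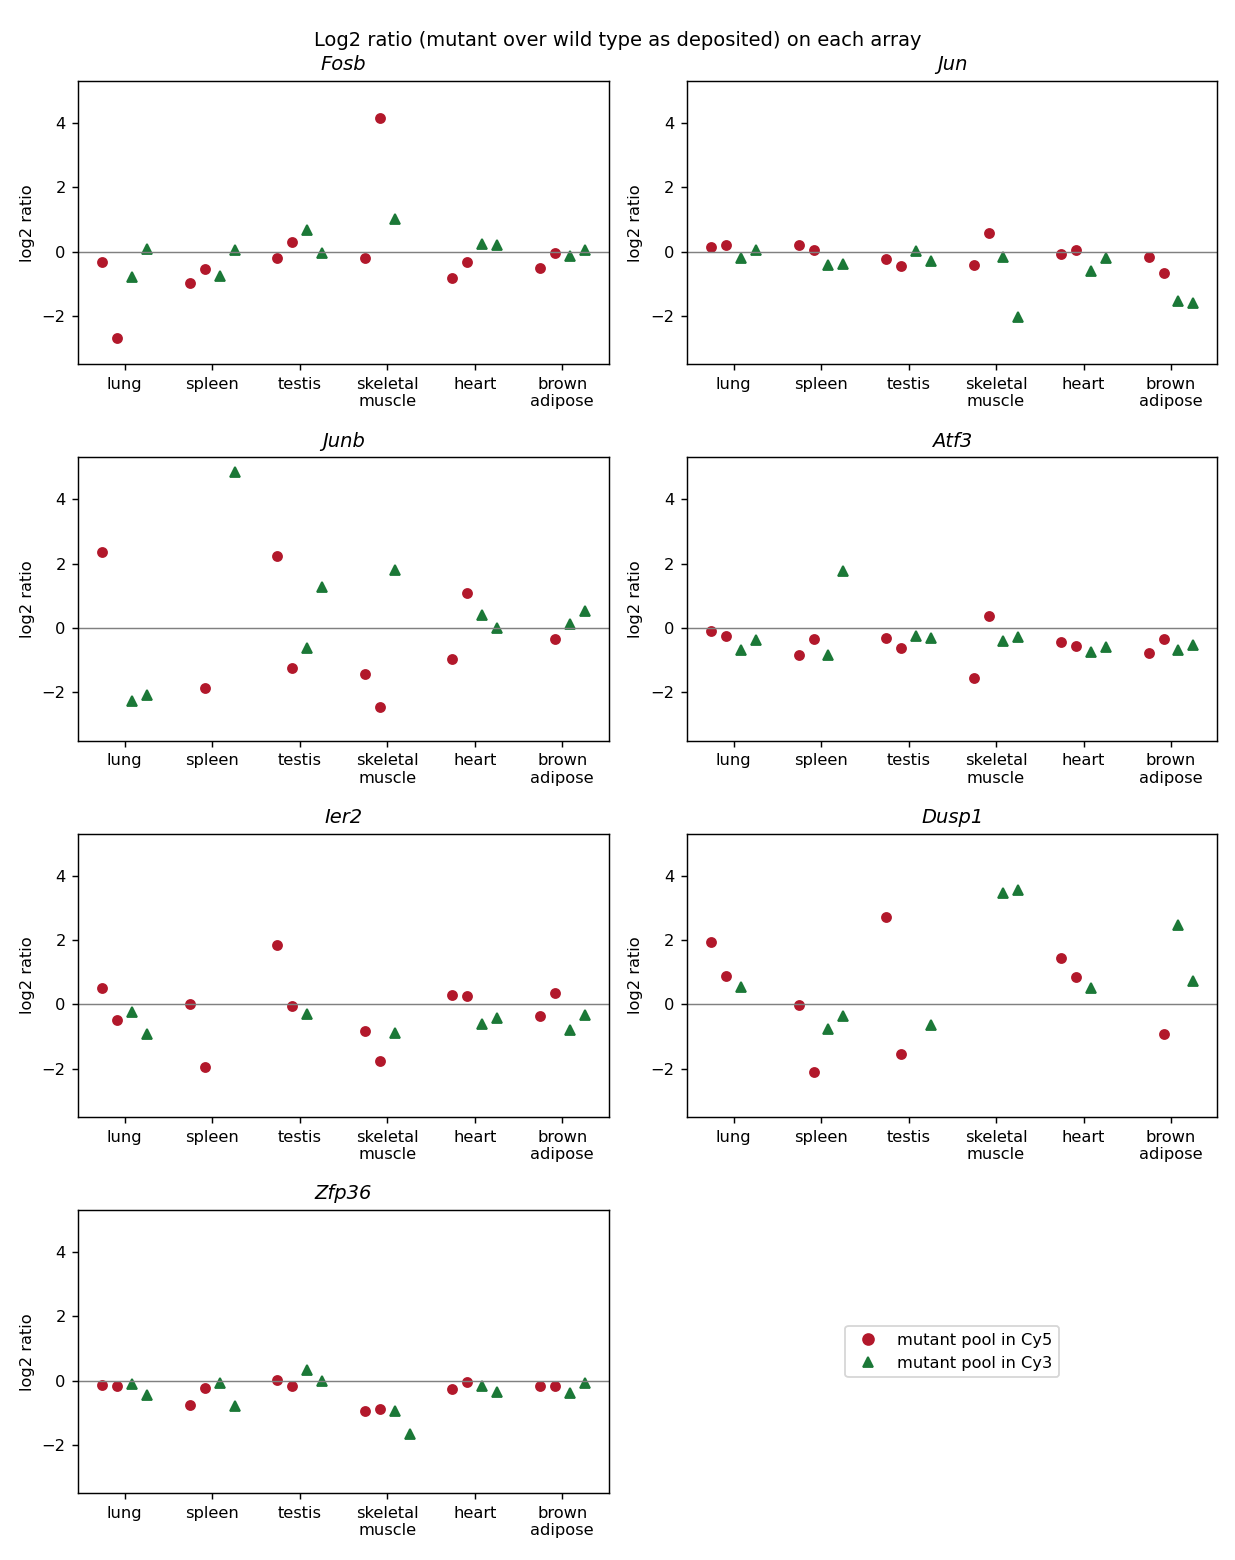
Log2 ratio of each member on every array, by organ, with the mutant pool in Cy5 (circles) or in Cy3 (triangles). Zfp36 lies between -1.66 and -0.88 on its 4 skeletal muscle arrays and between -0.80 and 0.33 in the other organs. Junb spans -2.44 to 4.86.

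A limma unadjusted p under 0.05 was found for 1 of 5 members in spleen (15.4% of all rows) and 3 of 6 in skeletal muscle (20.2%). There was 1 of 7 in brown adipose tissue, where 0.670% of all rows had such a p. In lung (6.63% of all rows), testis (3.63%) and heart (2.05%) there were 0 of 7 each. Of the 39 tested pairs, 12 were below 0 on every array with a value, against 2 above 0 on every array. Most of the 12 were Zfp36 (every organ but testis) and Atf3 (lung, testis, heart and brown adipose tissue). The 2 were Dusp1 in lung and heart. Among all rows with 4 values, 6.31% (testis) to 11.4% (skeletal muscle) were below 0 on all 4 arrays. The share above 0 was not computed. The estimate was below 0 in 28 of the 39 pairs. By organ, 5 of 7 members were below 0 in lung (51.2% of all rows), 5 of 5 in spleen (54.5%), 2 of 7 in testis (47.3%), 5 of 6 in skeletal muscle (58.2%), 5 of 7 in heart (52.2%) and 6 of 7 in brown adipose tissue (61.1%). The median of the tested members was -0.28 in lung, where that of all rows was -0.01. It was -0.47 against -0.07 in spleen, -0.54 against -0.16 in skeletal muscle, -0.18 against -0.02 in heart and -0.20 against -0.07 in brown adipose tissue. In testis the order turned, with 0.18 for the members and 0.02 for all rows. These medians rest on 5 to 7 genes and carry no test. Markers of other tissues were lower in the mutant pools of spleen and lung. In spleen 8 of 10 exocrine pancreas genes were lower (median -4.75, from -6.68 to 1.89), and in lung 3 of 10 fast skeletal muscle genes were (median -1.49, from -3.46 to 2.19). Spleen also had 1 of 6 fast skeletal muscle genes lower and 1 of 4 fat genes higher, and in testis, heart and brown adipose tissue none of the marker lists had a gene past the test by limma. Their part in the members' values was not tested.

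**Figure D2:**
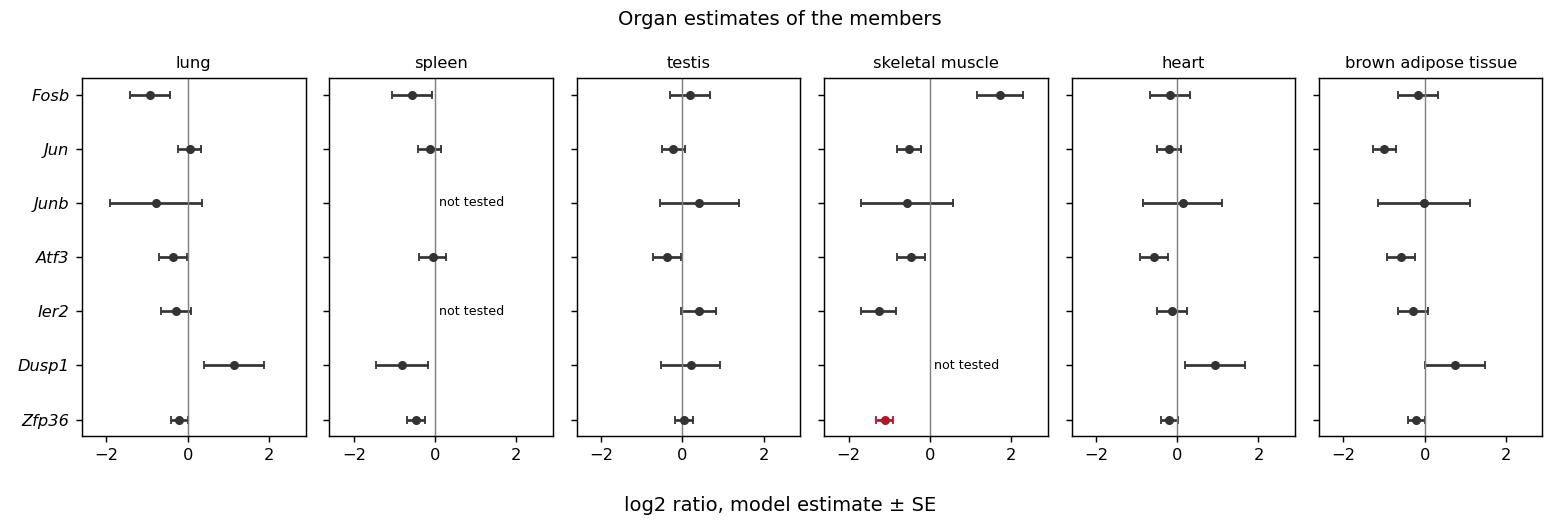
Model estimate of the log2 ratio with its standard error for each member, 1 panel per organ. The error rests on the spread over all organs. The red point, Zfp36 in skeletal muscle, is the only estimate past the adjusted threshold, and Junb has the widest errors, 0.97 to 1.13.

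Zfp36, the decay factor, had the most regular values among the members. In skeletal muscle its log2 ratio was -0.95 and -0.88 on the arrays whose Cy5 channel held the mutant pool (Cy5 arrays) and -0.95 and -1.66 on those with it in Cy3 (Cy3 arrays). All 4 arrays were low, with both dyes, and replicate 4 was the lowest. The estimate was -1.11 ± 0.21 (SE, n = 4 arrays), a level 2.16-fold lower (limma adjusted p = 0.00336). Relative to the median of each array the 4 values were -0.49, -0.07, -0.96 and -2.35, so the array with the most negative median showed almost no difference from its own median. With all arrays centred on their medians the estimate was -0.97 and did not pass (limma adjusted p = 0.071). It did not pass with array weights either (-1.01, adjusted p = 0.0579 by limma). Over all alternatives the limma adjusted p ranged from 0.00163 to 0.73, the highest with the sign of the Cy3 arrays turned, where the estimate was 0.20.

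Without skeletal muscle replicates 2 and 4 the Zfp36 estimate was -0.95 (limma adjusted p = 0.069). Leaving out replicate 1 of every organ gave -1.14 (limma adjusted p = 0.0531) and leaving out replicate 4 gave -0.91 (0.0633). Compared with all rows tested in muscle, -1.11 lay at percentile 12.4 of the estimates. The marker lists read as follows in the same organ. Of the fast skeletal muscle list 0 of 10 tested genes passed (estimates from -0.63 to 1.11), of the macrophage list 0 of 4 (from -1.19 to 0.11), of the B cell list 0 of 3 (from -1.14 to 0.06) and of the neutrophil list 0 of 6 (from -0.63 to 1.17). Of the T cell list 1 of 4 was lower (from -2.85 to 1.07), of the erythroid list 1 of 3 was higher (from -0.82 to 2.02) and of the fat list 1 of 4 was higher (from -0.67 to 1.84). Their part in the Zfp36 value was not tested.

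In the other organs the Zfp36 estimates lay between -0.47 and 0.04. It was below 0 on all 4 arrays of spleen, at -0.76, -0.22, -0.08 and -0.80, with an estimate of -0.47 ± 0.21 (limma unadjusted p = 0.0414, adjusted p = 0.298). Relative to the median of each array these spleen values were -0.74, 0.11, 0.13 and -1.14, on both sides of 0. With arrays centred the spleen estimate was -0.41 (limma unadjusted p = 0.186, adjusted p = 0.564). Before centring, Zfp36 was also below 0 on all 4 arrays of lung (-0.44 to -0.09), heart (-0.34 to -0.04) and brown adipose tissue (-0.39 to -0.07), with estimates of -0.20 in each. Among rows with 4 values, 11.0% were below 0 on all 4 arrays in spleen, 7.58% in lung, 8.09% in heart, 9.88% in brown adipose tissue and 11.4% in skeletal muscle. In testis it lay between -0.18 and 0.33, with an estimate of 0.04 ± 0.21. The difference of Zfp36 between organs did not pass (limma F test, unadjusted p = 0.00412, adjusted p = 0.105), where 2.24% of 7553 rows did.

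Atf3, the stress-induced partner of AP-1 proteins, was low by a small amount on nearly every array. Its ratio was below 0 on 22 of 24 arrays, 11 of 12 with either dye, and on 22 of 24 after centring of the arrays. Zfp36 was likewise below 0 on 22 of 24, and on 20 after centring. Among the 3630 rows with all 24 values, 0.358% were below 0 on at least 22 arrays. That count was chosen after the values were seen and is a description.

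In heart the Atf3 ratio was -0.44 and -0.54 on the Cy5 arrays and -0.73 and -0.59 on the Cy3 arrays. In brown adipose tissue it was -0.78 and -0.33 in Cy5 and -0.69 and -0.53 in Cy3. All 8 of these values were below 0, with a small spread (SD 0.12 in heart and 0.20 in brown adipose tissue). The SE given next rests on the spread over all organs and is not the error of these organs alone. The estimates were -0.57 ± 0.34 in heart and -0.58 ± 0.34 in brown adipose tissue and neither passed (limma adjusted p = 1 in both, at 3 digits). They lay at percentiles 9.82 and 7.49 of all rows. In lung the values ran from -0.68 to -0.10 and in testis from -0.62 to -0.25, again below 0 on every array, as were 6.31% of rows with 4 values in testis, with estimates of -0.35 and -0.37. Spleen replicate 4 (1.77) and skeletal muscle replicate 2 (0.36) were the exceptions, and the estimates there were -0.06 and -0.47. The mean over the 6 organ means was -0.40 ± 0.12 (SE, n = 6 organs), below 0 in 6 of 6 organs, a pattern shared by 4.20% of 7553 rows. It did not pass the test over organs (limma, unadjusted p = 0.00958, adjusted p = 0.702), in which 0% of rows passed and 5.71% had an unadjusted p under 0.05. Atf3 was the 1 member of the 4 tested there with such a p. Each organ mean rests on 1 comparison of pools, so the SE and p over organs do not measure the spread between animals.

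Jun, the AP-1 subunit, had its largest difference in brown adipose tissue. The mean of its 2 probes was -0.17 and -0.65 on the Cy5 arrays and -1.55 and -1.58 on the Cy3 arrays. All 4 arrays were low, and those with the mutant pool in Cy3 were the lower ones. The estimate was -0.99 ± 0.29, a level 1.98-fold lower, at percentile 1.81 of all rows (limma unadjusted p = 0.00248, adjusted p = 1). It passed with array weights (-0.96, limma adjusted p = 0.0114), as did 0.0394% of all rows by limma. With arrays centred and scaled it passed too (-1.55, limma adjusted p = 0.0434), as did 0.0328%. It did not pass under the other alternatives, where the limma adjusted p ranged up to 1. With the Cy3 arrays turned in sign it stood at 0.58. The 2 probes differed: one had -0.06, -1.17, -2.32 and -2.68 on the 4 arrays (mean -1.56), the other -0.28, -0.14, -0.77 and -0.48 (mean -0.42).

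The Jun probes also parted in spleen, where one had a mean of 0.37 and the other of -0.64, below 0 on all 4 arrays. Over the 24 arrays they correlated at r = 0.29 (Spearman 0.16), given as a description. In the other organs the Jun estimates lay between -0.51 in skeletal muscle and 0.05 in lung. In skeletal muscle replicate 4 (-2.04) stood below the other arrays (-0.41, 0.58 and -0.18).

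Fosb, a Fos family subunit of AP-1, and Junb varied far more between arrays. In skeletal muscle Fosb read -0.20 and 4.16 on the Cy5 arrays and 1.02 on the 1 Cy3 array with a value. These values span both signs, and the 4.16 was on replicate 2, the array with the lowest median. The estimate of 1.72 ± 0.57 did not pass (limma unadjusted p = 0.00682, adjusted p = 0.0847). The SD of these 3 arrays was 2.25. In lung Fosb was at -0.33, -2.67, -0.80 and 0.09, with an estimate of -0.93 ± 0.49. In the other organs its estimates lay between -0.56 (spleen) and 0.18 (testis). The difference of Fosb between organs did not pass (limma F test, unadjusted p = 0.0295, adjusted p = 0.292), and the count of members past it was 0 of 4, with 2 at an unadjusted p under 0.05 (13.3% of all rows).

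Junb split by dye in lung, where the Cy5 array read 2.36 and the Cy3 arrays -2.26 and -2.07. In skeletal muscle the order was the opposite, with -1.44 and -2.44 in Cy5 and 1.81 in Cy3. In spleen it had a value on 2 arrays only, -1.87 and 4.86, and was not tested. In testis it ran from -1.25 to 2.23 and in heart from -0.95 to 1.10, with 2 of 4 arrays below 0 in either. Its 5 estimates lay between -0.78 and 0.41 with standard errors of 0.97 to 1.13, so a difference as large as that of Zfp36 in muscle would be about 1 standard error for this gene.

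Ier2, a nuclear protein of the early response whose role is less well defined, was below 0 on the 3 skeletal muscle arrays with a value, at -0.84, -1.76 and -0.88. The estimate of -1.25 ± 0.43 did not pass (limma unadjusted p = 0.0102, adjusted p = 0.109). In lung (-0.92 to 0.51), heart (-0.61 to 0.29) and brown adipose tissue (-0.79 to 0.36) the arrays lay on both sides of 0. All 8 arrays with the mutant pool in Cy3 were below 0, against 6 of 12 in Cy5. In spleen both values came from Cy5 arrays (0.00 and -1.95), and Ier2 was not tested there.

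Dusp1, the phosphatase, was far above 0 in skeletal muscle, but on 2 arrays only. The ratios were 3.47 and 3.55, both with the mutant pool in Cy3, and no Cy5 array gave a value, so a dye effect cannot be told apart from a difference between the pools. Replicate 4, one of the pair, also had the highest array median. In lung Dusp1 was at 1.95 and 0.88 in Cy5 and 0.55 in Cy3, and in heart at 1.44, 0.84 and 0.50. These 6 values were all above 0. In spleen it was at -0.02, -2.10, -0.78 and -0.36, all below 0. The estimates were 1.14 ± 0.74 in lung, 0.94 ± 0.74 in heart and -0.81 ± 0.63 in spleen, and none passed (limma adjusted p = 0.915, 1 and 0.586). The difference between lung and spleen was 1.96 ± 0.95 and that between heart and spleen 1.75 ± 0.95, and neither passed (limma adjusted p = 0.508 and 0.628 over 9466 and 10198 rows). These 2 contrasts were chosen after the values were seen. In brown adipose tissue and testis the arrays lay on both sides of 0.

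The dye orientation was then compared over all 24 arrays. Jun averaged -0.06 ± 0.34 (SD, n = 12) over the Cy5 arrays and -0.61 ± 0.70 (n = 12) over the Cy3 arrays, a dye term of 0.56 ± 0.23 (SE). By limma its unadjusted p was 0.0271 and its adjusted p was 0.31. Of the 7 members 0 passed by limma, against 0.506% of 14836 rows, and 1 had an unadjusted p under 0.05, against 13.1% of rows. Atf3 averaged -0.48 ± 0.46 in Cy5 and -0.33 ± 0.69 in Cy3. Zfp36 averaged -0.32 ± 0.34 in Cy5 and -0.39 ± 0.53 in Cy3. For these 2 members the orientations differed by less than the spread between arrays, with dye terms of -0.15 ± 0.28 and 0.07 ± 0.17. The terms of Fosb (-0.39), Junb (-0.72), Ier2 (0.57) and Dusp1 (-0.09) were smaller than 2 standard errors.

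**Figure D3:**
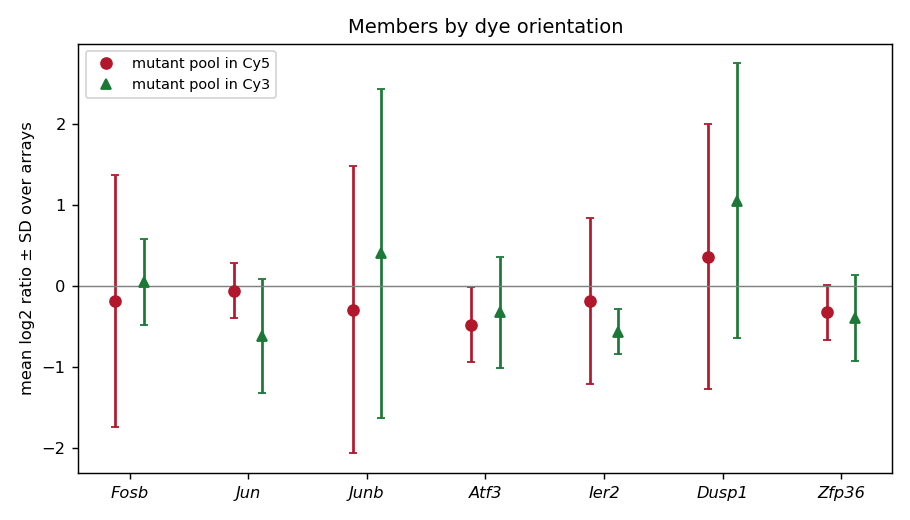
Mean log2 ratio with the SD over arrays of all organs, by dye of the mutant pool, for each member. Atf3 and Zfp36 lie below 0 in both orientations, while Jun is near 0 in Cy5 and at -0.61 in Cy3.

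Over the 21 pairs of members the Pearson correlation of array-centred ratios had a median of 0.06 and ran from -0.49 (Junb and Zfp36, 19 arrays) to 0.59 (Jun and Zfp36, 24 arrays). The Spearman correlation of Jun and Zfp36 was 0.28. The arrays share RNA pools within an organ, and these correlations are descriptions without a test.

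Genes with a profile most like that of a member were sought among genes with at least 20 shared arrays. Nearest to Zfp36 were Atp5j, a subunit of ATP synthase (r = 0.92), Rnaset2b, a ribonuclease (0.92), and Cox14, an assembly factor of cytochrome oxidase (0.91), over 24 arrays each. Without skeletal muscle replicates 2 and 4 these were 0.79, 0.79 and 0.75. Nearest to Atf3 were Tmem200a (0.85, over 21 arrays), Slitrk3 (0.82, over 23) and Tppp (0.81, over 23). Without the same 2 muscle arrays these were 0.76, 0.73 and 0.81. Nearest to Jun were Rcn1, Phrf1 and Coa3 (0.86, 0.85 and 0.85 over 24 arrays), which stood at 0.52, 0.57 and 0.69 without those 2 muscle arrays. Nearest to Fosb were Tepp (0.89 over 23 arrays), Steap3 (0.87 over 20) and Ftl1 (0.85 over 23). Without those 2 muscle arrays they stood at 0.57, 0.69 and 0.38. Nearest to Ier2 were Mgat5, Tapt1 and Nadk (0.81, 0.77 and 0.75 over 20 arrays). Without those 2 muscle arrays these were no lower, at 0.83, 0.835 and 0.77. Each was among the 3 highest of 3393 to 6554 correlations, and Junb and Dusp1 had too few arrays for this. The Spearman values were lower than Pearson's over the same arrays throughout. They were 0.59, 0.59 and 0.66 for the 3 genes nearest to Zfp36, 0.65, 0.59 and 0.31 for Atf3, and 0.48, 0.61 and 0.74 for Jun. For Fosb they were 0.53, 0.78 and 0.31, and for Ier2 0.64, 0.64 and 0.52.

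Other genes of the pathway were taken from lists of kinases, upstream factors, AP-1 partners, EGR and KLF factors, feedback phosphatases, relatives of Zfp36 and further early genes. Of 123 listed genes 66 were on the array. In skeletal muscle 1 of 50 tested genes passed, a share of 2.00% against 5.59% of all rows, and it was lower in the mutant pool. This was Ccn2, connective tissue growth factor, a secreted early gene product, at -1.89, -0.99, -0.86 and -2.14 on the 4 arrays. All 4 were low with both dyes. The estimate was -1.47 ± 0.37, a level 2.77-fold lower (limma adjusted p = 0.0203). It did not pass with arrays centred (-1.33, limma adjusted p = 0.0692) or with array weights (-1.39, 0.239). With arrays centred and scaled it was -0.71 (limma adjusted p = 0.742), and with muscle fitted alone -1.47 (0.549). It did not pass without skeletal muscle replicates 2 and 4 (0.182) either, nor when replicate 1, 2, 3 or 4 of the organs was left out (0.076, 0.0653, 0.075 and 0.137). With the Cy3 arrays turned in sign it stood at 0.03.

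In the other organs 0 of the related genes passed by limma: 0 of 53 in lung, 52 in spleen, 58 in testis, 61 in heart and 63 in brown adipose tissue. Their median was -0.46 in skeletal muscle, against -0.16 for all rows, and between -0.17 and -0.03 elsewhere. The signal kinases, which carry the stimulus to the early genes, had 0 of 10 genes past the test in skeletal muscle, with a median of -0.65 and estimates from -1.62 to 0.55. The EGR and KLF factors, zinc finger proteins of the early response, had 0 past the test in any organ. Their estimates ran from -1.49 to 0.18 in skeletal muscle (median -0.99), from -0.81 to 1.52 in spleen (-0.51), from -0.85 to -0.29 in lung (-0.47), from -0.41 to 0.51 in testis (-0.10), from -0.16 to 0.37 in heart (-0.13) and from -0.34 to 0.15 in brown adipose tissue (0.04). The feedback phosphatases, the family of Dusp1 with the Sprouty proteins, had medians from -0.50 in skeletal muscle to 0.14 in brown adipose tissue. The relatives of Zfp36 had 2 to 4 genes tested per organ, with medians of -0.45 in skeletal muscle, -0.53 in lung, 0.64 in spleen, -0.06 in testis, -0.09 in heart and -0.19 in brown adipose tissue. Their estimates reached 1.81 in spleen and 1.29 in lung. No related gene had a dye term past the test (0 of 64 by limma).

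For scale, Nr4a1 itself had estimates of -0.38 ± 0.26 in lung, -0.75 ± 0.26 in spleen, -0.24 ± 0.31 in testis, -1.73 ± 0.31 in skeletal muscle, -0.67 ± 0.26 in heart and -1.14 ± 0.26 in brown adipose tissue. Of these, skeletal muscle alone passed (limma adjusted p = 0.0022). Brown adipose tissue, spleen and heart did not, at limma unadjusted p of 0.000424, 0.0110 and 0.0203. Missing the threshold therefore does not show that a gene was unchanged. In skeletal muscle the members ran from -1.25 (Ier2) to 1.72 (Fosb), and in brown adipose tissue from -0.99 (Jun) to 0.74 (Dusp1). These values come from the same arrays, and no relation between them was tested.

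**Figure D4:**
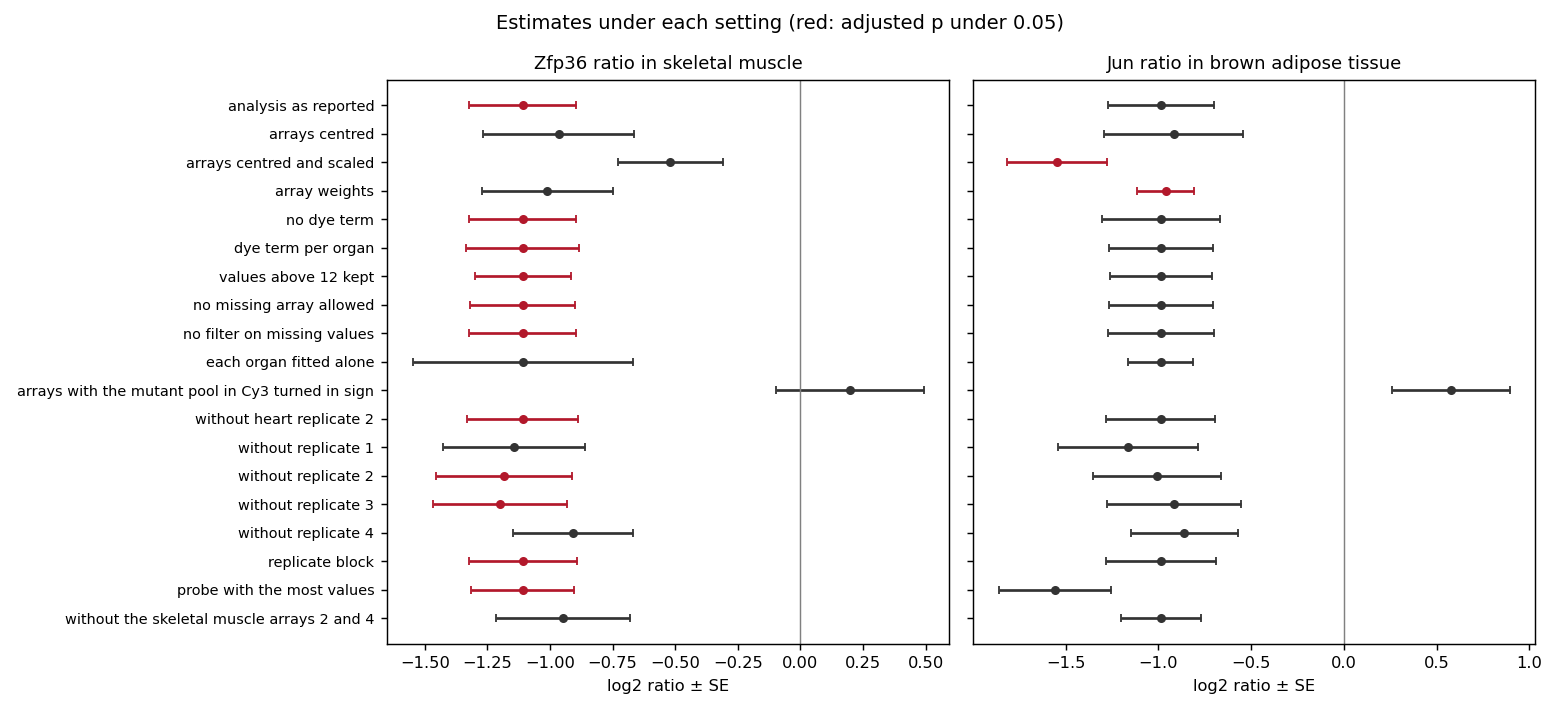
Estimate and standard error of Zfp36 in skeletal muscle (left) and Jun in brown adipose tissue (right) under each processing alternative, red where the adjusted p was under 0.05. Every estimate is below 0 except with the Cy3 arrays turned in sign, at 0.20 and 0.58.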

How the data were processed

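Total RNA of each organ was labelled indirectly with Cy3 or Cy5 (20 µg per labelling, per the labels' protocols) and hybridised as 24 two-colour arrays. The authors deposited 1 log2 ratio per probe and array. For scale, centring, direction, software and filter the entry is: not given in the sources used here. Base 2 was assumed because 4874 of 392774 values form a separate mode above 12 in size, near the log2 of a 16-bit signal. These were treated as missing. Array medians were not centred. Probes with 1 symbol in the platform annotation (13891 of 20205, 5 with several, 6309 with none) were averaged per gene, giving 16148 rows with the unnamed probes.

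A row was tested in an organ with at most 1 missing array and both dye orientations present. limma 3.58.1 (R 4.3.3) fitted 6 organ terms and 1 dye term to all arrays, with Benjamini-Hochberg adjustment over all rows of an organ. The dye term was tested for rows testable in at least 3 organs, and the F test and the test over organ means for rows testable in every organ. A run of the same steps on made-up values was also done, but no outcome of it is reported here. It therefore does not vouch for the call of Zfp36 in skeletal muscle. The members, lists and tests were chosen with earlier results of these data known. All members were named, related genes where they passed, and for likeness the 3 highest correlations per member with at least 20 arrays. The number of arrays limits the precision.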

Additional observations from a re-analysis of the deposited data

Results flagged for a closer look

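Atf3 in testis had 1 array far from the others for its range, replicate 2 at -0.62, while the other 3 lay between -0.31 and -0.25. Zfp36 in skeletal muscle had replicate 4 at -1.66, while the other 3 lay between -0.95 and -0.88. These are 2 of 29 groups of 4 arrays examined, and chance marks about 1 in 20 such groups. Dusp1 was above 0 on all 3 arrays of lung with a value (mean 1.13) and of heart (mean 0.92) and below 0 on all 4 of spleen. Both differences were tested with limma and did not pass (adjusted p = 0.508 and 0.628).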

How the results depend on the processing

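Of 39 estimates by organ, Zfp36 in skeletal muscle alone passed, and it crossed the threshold in several alternatives. The count of members past the test there was 1, and 0 with arrays centred, centred and scaled, with array weights, with muscle fitted alone, with the Cy3 arrays turned in sign, and without muscle replicates 2 and 4 (chosen after seeing the data). Without replicates 1 to 4 of the organs in turn it was 0 to 1. Zfp36 turned to 0.20 with the Cy3 arrays turned in sign, was -0.52 with arrays centred and scaled, and -1.11 (adjusted p = 0.563) with muscle fitted alone. In brown adipose tissue the count was 0, and 1 (Jun) with array weights (0.0394% of 15223 rows) or with centring and scaling (0.0328%). The cause was not tested. The other counts by organ, over the organs and of the dye term stayed at 0 under every alternative run. Centring moved the median of all muscle estimates from -0.16 to 0.00, and the muscle calls from 267 lower and 402 higher to 105 and 447. Called muscle rows numbered 60 (2 lower, 58 higher) after centring and scaling, 180 (18 and 162) with array weights, 903 (847 and 56) with the Cy3 arrays turned, 0 with muscle fitted alone, and 238 to 345 with a replicate number left out. With the Cy3 arrays turned in sign, 24 of 50 values kept their sign, and without heart replicate 2 45 of 46 did. With the replicate block in place of the dye term Zfp36 in muscle was -1.11 (limma adjusted p = 0.00525), and no call of a member changed. Same-numbered arrays of different organs had deviations that correlated between -0.22 and 0.12, and differently numbered ones between -0.28 and 0.26. These correlations cannot decide whether the numbers pair the arrays across organs. Low values cannot be judged, since the ratios carry no signal over background.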
